A study of Arabidopsis thaliana with 6 samples.

Results

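A set of 10 genes of sucrose export and phloem loading was followed at the base of *Arabidopsis thaliana* inflorescence stems. The genes were taken by locus code and comprise the exporter genes *SWEET11* (AT3G48740), *SWEET12* (AT5G23660), *SWEET13* (AT5G50800) and *SWEET14* (AT4G25010), the sucrose-proton symporter genes *SUC1* (AT1G71880), *SUC2* (AT1G22710), *SUC3* (AT2G02860) and *SUC4* (AT1G09960), the proton pump gene *AHA3* (AT5G57350) and the potassium channel gene *AKT2* (AT4G22200). All 10 were present among the 33602 loci of the deposited count table, and all 10 passed the filter on low counts, which kept 20296 loci. In the RefSeq annotation of TAIR10.1 the genes lie, with their strand, as *SWEET11* at chr3:18052466-18054832 (minus), *SWEET12* at chr5:7971647-7973995 (minus), *SWEET13* at chr5:20665068-20667312 (minus), *SWEET14* at chr4:12854385-12856541 (minus), *SUC1* at chr1:27054030-27056464 (plus), *SUC2* at chr1:8030587-8033156 (minus), *SUC3* at chr2:828279-832619 (minus), *SUC4* at chr1:3243986-3247216 (plus), *AHA3* at chr5:23230874-23236682 (minus) and *AKT2* at chr4:11746490-11750698 (minus). RNA was sequenced from 3 libraries labelled *smxl4 smxl5* and 3 labelled wild type for the genotype of the shoot. In both groups the shoot stood on a wild-type root joined by grafting in the seedling stage, on medium with sucrose, and the plants later moved from short to long days. Stem segments of 1 cm were cut at the base of plants 15 to 20 cm tall, and 3 segments were pooled for each library. The labels name neither the alleles nor the accession, and the whole segment was extracted, so that the phloem was a part of each sample.

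The series describes *smxl4 smxl5* as defective in phloem, and the comparison asked how the transporter genes of that tissue stand in such stems. Neither gene of the genotype's name was called as lower in the libraries labelled *smxl4 smxl5*, called mutant-labelled from here on. *SMXL4* (AT4G29920) read 13.4, 15.3 and 11.2 CPM there and 12.1, 10.2 and 11.1 CPM in wild type, and *SMXL5* (AT5G57130) read 116, 116 and 82.0 CPM and 112, 97.5 and 99.4 CPM, where CPM is the count per 1e+06 counts of the TMM-scaled library. The log2 fold changes were 0.26 ± 0.13 and 0.02 ± 0.14 (edgeR adjusted p = 0.179 and 0.920). Counts over a whole gene cannot show an interrupted transcript, so the labels are not checked by these values, and directions are those of the labels. Libraries held from 21364628 to 49929595 counts.

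In the source-to-sink transport of plants, sucrose leaves phloem parenchyma cells through SWEET uniporters of the plasma membrane and is taken up into companion cells by proton symporters of the SUC family. A plasma membrane proton pump supplies the gradient for that uptake, and a potassium channel steadies the membrane voltage. In stems the symporters also retrieve sucrose that leaks from the transport phloem. Among the genes followed here, *SUC2* encodes the main loader of companion cells, *AHA3* a proton pump of companion cells and *AKT2* a weakly rectifying potassium channel of the phloem.

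The 4 SWEET genes belong to a clade whose members carry sucrose, and they fall into close pairs. The coding sequences of *SWEET11* and *SWEET12* were identical at 80.4% of aligned positions and those of *SWEET13* and *SWEET14* at 77.5%, while between the pairs identity ran from 61.1% to 65.2%. The longest run of bases that a *SWEET11* transcript shared with any other annotated locus was 29 bases, in *SWEET12*. That run is shown with its surroundings because it is the longest identical stretch of these coding sequences, with capitals at the differing bases (coding bases 520 to 578 of each gene).
SWEET11 coding: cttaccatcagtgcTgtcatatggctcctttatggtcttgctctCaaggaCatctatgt
SWEET12 coding: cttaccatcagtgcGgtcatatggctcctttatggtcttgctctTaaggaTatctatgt
No member had a stretch of 100 bases or more at 95% identity to another locus, and none overlapped another locus of the annotation. The longest shared run of *SUC1* was 41 bases, with its tandem neighbour *SUC5*.

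The 250 bases before the annotated start are printed for the SWEET genes and for *SUC1* and *SUC2*, since within these close relatives some genes rose while others fell. They are from the RefSeq sequence of TAIR10.1, all on the minus strand except *SUC1*. Their positions are chr3:18054833-18055082 for *SWEET11*, chr5:7973996-7974245 for *SWEET12*, chr5:20667313-20667562 for *SWEET13*, chr4:12856542-12856791 for *SWEET14*, chr1:27053780-27054029 for *SUC1* and chr1:8033157-8033406 for *SUC2*. Capitals mark, on either strand, the W-box core TTGAC, the letters ACGTG, the G-box CACGTG (which holds ACGTG on both strands) and the letters AAATATCT.
SWEET11 upstream: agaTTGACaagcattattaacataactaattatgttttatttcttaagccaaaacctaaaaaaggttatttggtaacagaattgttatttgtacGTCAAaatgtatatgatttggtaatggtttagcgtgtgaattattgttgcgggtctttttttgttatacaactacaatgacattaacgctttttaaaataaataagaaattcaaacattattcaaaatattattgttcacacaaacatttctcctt
SWEET12 upstream: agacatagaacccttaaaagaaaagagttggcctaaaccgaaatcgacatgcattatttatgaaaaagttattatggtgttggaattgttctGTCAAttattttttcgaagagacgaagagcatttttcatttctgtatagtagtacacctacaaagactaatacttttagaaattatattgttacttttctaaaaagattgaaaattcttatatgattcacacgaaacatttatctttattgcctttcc
SWEET13 upstream: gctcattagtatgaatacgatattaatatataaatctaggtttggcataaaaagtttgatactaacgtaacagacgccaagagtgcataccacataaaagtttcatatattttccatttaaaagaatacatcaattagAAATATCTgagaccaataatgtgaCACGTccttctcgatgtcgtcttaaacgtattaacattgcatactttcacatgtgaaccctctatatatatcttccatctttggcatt
SWEET14 upstream: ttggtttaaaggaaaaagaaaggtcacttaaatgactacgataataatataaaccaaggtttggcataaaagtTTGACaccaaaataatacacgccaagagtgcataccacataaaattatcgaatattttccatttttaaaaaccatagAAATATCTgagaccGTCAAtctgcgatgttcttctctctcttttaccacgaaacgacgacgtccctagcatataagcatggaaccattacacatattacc
SUC1 upstream: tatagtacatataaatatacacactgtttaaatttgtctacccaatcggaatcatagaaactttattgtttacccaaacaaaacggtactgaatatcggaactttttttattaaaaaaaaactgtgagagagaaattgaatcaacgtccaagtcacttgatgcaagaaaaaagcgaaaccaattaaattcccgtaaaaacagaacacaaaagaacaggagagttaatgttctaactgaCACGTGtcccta
SUC2 upstream: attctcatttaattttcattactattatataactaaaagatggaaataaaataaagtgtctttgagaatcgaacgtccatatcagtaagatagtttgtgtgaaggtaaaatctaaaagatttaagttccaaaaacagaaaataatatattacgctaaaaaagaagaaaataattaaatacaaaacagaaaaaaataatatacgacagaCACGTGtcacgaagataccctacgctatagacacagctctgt
W-box cores were found in 5 of the 10 members, with 2 in *SWEET11*, 1 in *SWEET12*, 2 in *SWEET14*, 3 in *AHA3* and 1 in *AKT2*, so in genes that rose, fell and were not called. Their first bases lay 247 and 156 bases upstream in *SWEET11*, 158 in *SWEET12* and 177 and 86 in *SWEET14*. The core was present in 44.9% of the 27443 windows of this length before protein-coding genes. *SWEET13* and *SWEET14* shared AAATATCT, at 112 and 100 bases, which these 2 of the 10 members and 4.79% of windows held. *SUC1* and *SUC2* were the 2 members with a G-box, at 12 and 42 bases, present in 6.49% of windows. The DOF core AAAG occurred in all 10 members and in 98.0% of windows, and TATCCA in 0 members and 13.6% of windows. These matches describe letters in a window.

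Of the 10 genes 6 differed between the genotypes at an adjusted p of 0.05 in edgeR's quasi-likelihood test, 3 of them higher and 3 lower in the mutant-labelled libraries. Of all genes tested 24.9% were called, 11.2% as higher and 13.7% as lower. *SWEET11*, *SWEET12* and *SUC1* rose, *SWEET13*, *SUC2* and *AHA3* fell, and *SWEET14*, *SUC3*, *SUC4* and *AKT2* were not called. The median log2 fold change of the 10 genes was -0.088, against 0.021 over all genes tested. In whole segments, fewer cells of a type and less RNA per cell cannot be told apart. Opposite calls stood within both the SWEET and the SUC genes.

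**Figure D1:**
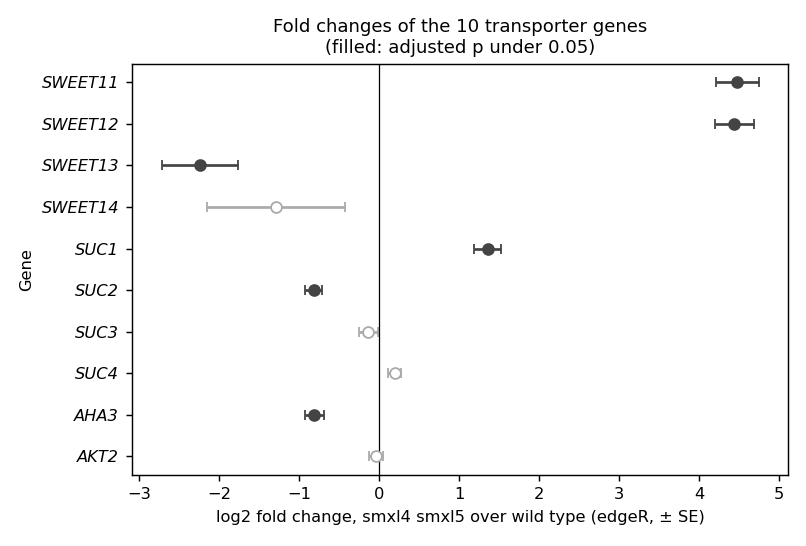
Log2 fold change of each transporter gene, mutant-labelled over wild type, from edgeR with its standard error (n = 3 libraries a group). Filled points passed an adjusted p of 0.05: *SWEET11*, *SWEET12* and *SUC1* lie right of 0, *SWEET13*, *SUC2* and *AHA3* left of it.

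The exporters *SWEET11* and *SWEET12* are known to act together in releasing sucrose from phloem parenchyma. *SWEET11* was counted 14, 9 and 19 times in the wild-type libraries and 215, 191 and 252 times in the mutant-labelled ones, or 0.417, 0.200 and 0.383 CPM against 6.44, 8.88 and 6.99 CPM. *SWEET12* was counted 16, 19 and 28 times in wild type and 261, 282 and 408 times in mutant-labelled libraries, or 0.476, 0.421 and 0.565 CPM against 7.81, 13.1 and 11.3 CPM. In each gene the lowest mutant-labelled library lay far above the highest wild-type library. The log2 fold changes were 4.48 ± 0.27 (SE, n = 3) and 4.44 ± 0.25, with edgeR adjusted p of 0.000519 and 0.000398. Only 10 of the 20296 tested genes had a larger absolute fold change than *SWEET11*, and 12 than *SWEET12*. Per length, as CPM divided by the kilobases of exon (RPKM), *SWEET11* ran at 0.599 to 0.799 of *SWEET12* in the mutant-labelled libraries and at 0.460 to 0.849 in wild type. This ratio overlapped between the groups, with a log2 difference of 0.10 (two-sided exact permutation p = 0.9, n = 3 a group), and changed sign without mutant-labelled replicate 1 (-0.02) or wild type replicate 2 (-0.14).

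*SWEET13* encodes another sucrose uniporter, known in *Arabidopsis* also from anthers and as a carrier of gibberellin. It was a rare transcript, counted 19, 48 and 43 times in wild type and 2, 4 and 10 times in mutant-labelled libraries (0.566, 1.06 and 0.868 against 0.0599, 0.186 and 0.277 CPM). All wild-type values were above all mutant-labelled values, and the log2 fold change was -2.24 ± 0.48 (edgeR adjusted p = 0.0156). Without wild type replicate 2 the call was lost (log2 -2.03, edgeR adjusted p = 0.0636). *SWEET14*, its closest relative and likewise a gene of anthers, was counted 12, 28 and 68 times in wild type and 25, 3 and 2 times in mutant-labelled libraries. These values overlapped, since mutant-labelled replicate 1 stood above wild type replicates 1 and 2. The log2 fold change was -1.29 ± 0.86 (edgeR adjusted p = 0.306). It was -3.14 when mutant-labelled replicate 1 was left out (edgeR adjusted p = 0.0625), -0.73 when replicate 3 of that group was, and -0.62 when the third wild-type library was, so the size of any difference in *SWEET14* was not resolved at these counts.

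Shares of the 4 genes in their summed level were compared next. *SWEET13* made up 35.8% ± 10.1 (SD, n = 3) and *SWEET14* 30.4% ± 12.1 of the summed RPKM of the 4 genes in wild type, while *SWEET12* made up 57.7% ± 4.70 and *SWEET11* 39.2% ± 2.57 in the mutant-labelled libraries. *SWEET13* took 0.971% ± 0.59 there. The ratio of *SWEET13* to *SWEET12* was 1.26, 2.68 and 1.63 in wild type and 0.00813, 0.0150 and 0.0260 in mutant-labelled libraries, which did not overlap. The log2 difference was -6.91, and the two-sided exact permutation p of 0.1 is the smallest that 3 against 3 libraries allow. Every mutant-labelled library was already below all wild-type ones in *SWEET13* and above them in *SWEET12*. Their ratio could therefore only separate, and its p-value adds no support. The summed level of these 4 genes was 1.38, 1.78 and 2.45 RPKM in wild type and 11.1, 16.4 and 13.7 RPKM in mutant-labelled libraries, a log2 difference of 2.90 (exact permutation p = 0.1). *SWEET12* alone, at 5.81 RPKM or more in each mutant-labelled library, lay above every wild-type sum. The summed level could therefore also only separate, and its p-value adds no support. Adjusted over the 7 sums and ratios computed in all, the p-values of this ratio and this sum were each 0.140.

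**Figure D2:**
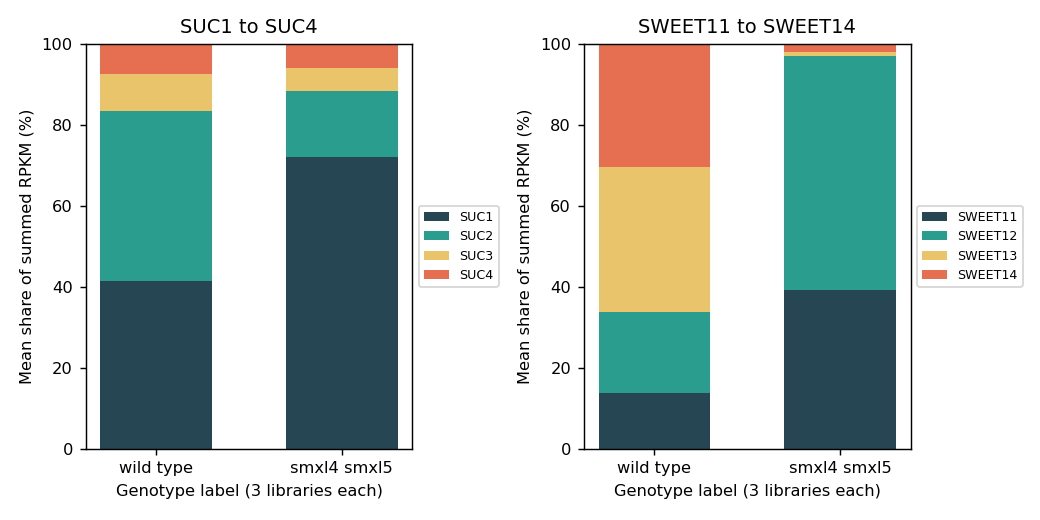
Mean share of each gene in the summed RPKM of *SUC1* to *SUC4* (left) and of *SWEET11* to *SWEET14* (right), in 3 wild-type and 3 mutant-labelled libraries. *SUC1* goes from 41.4% to 72.0%, and *SWEET11* and *SWEET12* together fill nearly the whole bar in the mutant-labelled libraries.

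Of the symporter genes, *SUC2* fell and *SUC1* rose. *SUC2* read 153, 169 and 151 CPM in wild type and 83.5, 81.5 and 103 CPM in mutant-labelled libraries. The groups were well apart, and the log2 fold change was -0.82 ± 0.11 (edgeR adjusted p = 0.00398). *SUC1*, a plasma membrane symporter known from pollen, trichomes and roots, read 185, 147 and 173 CPM in wild type and 523, 341 and 428 CPM in mutant-labelled libraries. Its lowest mutant-labelled library was still above every wild-type one, and its log2 fold change was 1.36 ± 0.17 (edgeR adjusted p = 0.00338).

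In wild type the pair stood level per length, at 77.0 ± 4.75 RPKM for *SUC2* and 76.2 ± 8.69 RPKM for *SUC1* (SD, n = 3), values that overlapped. In the mutant-labelled libraries *SUC1* was at 195 ± 41.2 RPKM and *SUC2* at 43.6 ± 5.74 RPKM. The *SUC1* to *SUC2* ratio, computed after the values were seen, was 1.12, 0.808 and 1.06 in wild type and 5.81, 3.87 and 3.86 in mutant-labelled libraries (log2 difference 2.17, two-sided exact permutation p = 0.1, n = 3 a group). With *SUC1* above and *SUC2* below all wild-type values in every mutant-labelled library, this ratio could only separate, and its p-value adds no support. *SUC2* accounted for 42.0% ± 3.46 of the summed RPKM of *SUC1* to *SUC4* in wild type and for 16.4% ± 2.79 in the mutant-labelled libraries. The sum itself was 189, 179 and 182 RPKM in wild type. It was 309, 222 and 277 RPKM in mutant-labelled libraries, a log2 difference of 0.54 (exact permutation p = 0.1). *SUC1* made up 41.4% ± 3.77 of it in wild type and 72.0% ± 3.99 in the mutant-labelled libraries. Only *SUC1* of these genes was called as higher, so the higher sum does not describe the symporter genes as a group.

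The remaining symporters were not called. *SUC3*, which encodes a plasma membrane symporter with a long cytoplasmic loop, read 41.2, 42.0 and 36.5 CPM in wild type and 35.9, 30.6 and 41.9 CPM in mutant-labelled libraries, a log2 difference of -0.14 ± 0.12 (edgeR adjusted p = 0.412). *SUC4*, whose protein exports sucrose from the vacuole, read 29.8, 28.2 and 32.7 CPM and 36.2, 33.1 and 34.3 CPM, a log2 difference of 0.19 ± 0.079 (edgeR adjusted p = 0.112). The *SUC3* values overlapped between the groups, and those of *SUC4* did not.

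*AHA3* fell and *AKT2* was not called. *AHA3* was at 62.5, 60.1 and 59.4 CPM in wild type and at 37.6, 38.4 and 27.8 CPM in mutant-labelled libraries, the lowest being replicate 3. The log2 fold change was -0.81 ± 0.12 (edgeR adjusted p = 0.00568). *AKT2* was at 112, 130 and 119 CPM in wild type and at 115, 126 and 112 CPM in mutant-labelled libraries, overlapping throughout, and its log2 fold change was -0.036 ± 0.087 (edgeR adjusted p = 0.786).

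The fold changes of *SUC2* and *AHA3* were nearly equal, and the ratio of *SUC2* to *AHA3* RPKM overlapped between the groups, at 4.32, 4.95 and 4.47 in wild type and 3.90, 3.74 and 6.50 in mutant-labelled libraries (log2 difference -0.003, two-sided exact permutation p = 1.0, n = 3 a group). Mutant-labelled replicate 3 was the highest, and without it the difference was -0.26. The ratio of *SUC2* to *AKT2* was 2.19, 2.08 and 2.03 in wild type and 1.16, 1.04 and 1.48 in mutant-labelled libraries. These did not overlap, with a log2 difference of -0.79 (exact permutation p = 0.1). *SUC2* was already below all wild-type values in every mutant-labelled library, and *AKT2* stayed between 112 and 130 CPM throughout. With these values the ratio to *AKT2* could only separate. It restates the fall of *SUC2*, and its p-value adds no support.

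**Figure D3:**
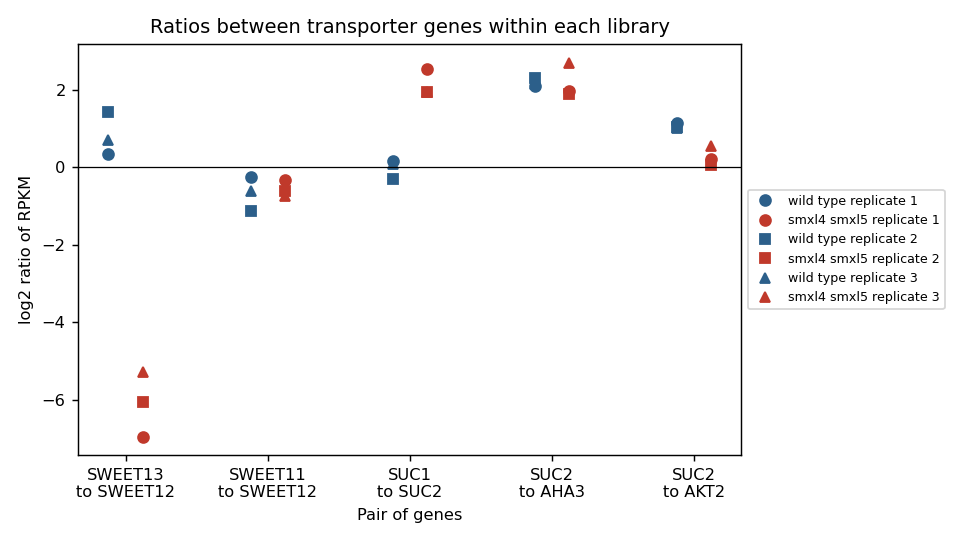
Log2 ratio of RPKM between pairs of transporter genes within each library, wild type in blue and mutant-labelled in red, 1 point per library. The groups separate for *SWEET13* to *SWEET12*, *SUC1* to *SUC2* and *SUC2* to *AKT2*, and overlap for *SWEET11* to *SWEET12* and *SUC2* to *AHA3*.

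In the order of levels per length, *SUC2* and *SUC1* led in wild type without a gap, followed by *AKT2* at 36.7 ± 2.81 RPKM, *AHA3* at 16.8 ± 0.46, *SUC3* at 16.8 ± 1.24 and *SUC4* at 13.6 ± 1.03. *AHA3* and *SUC3* did not differ beyond their spread. The SWEET genes came last, with *SWEET13* at 0.656 ± 0.20, *SWEET14* at 0.612 ± 0.41, *SWEET12* at 0.362 ± 0.054 and *SWEET11* at 0.240 ± 0.084 RPKM. In the mutant-labelled libraries *SUC1* led, *AKT2* at 35.8 ± 2.30 came close below *SUC2*, and *SUC4* and *SUC3* overlapped at 15.6 ± 0.71 and 15.2 ± 2.39 RPKM. *AHA3*, at 9.60 ± 1.64, overlapped *SWEET12* at 7.98 ± 2.00, which overlapped *SWEET11* at 5.36 ± 0.92. *SWEET14* and *SWEET13* stood last at 0.245 ± 0.30 and 0.137 ± 0.086 RPKM.

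**Figure D4:**
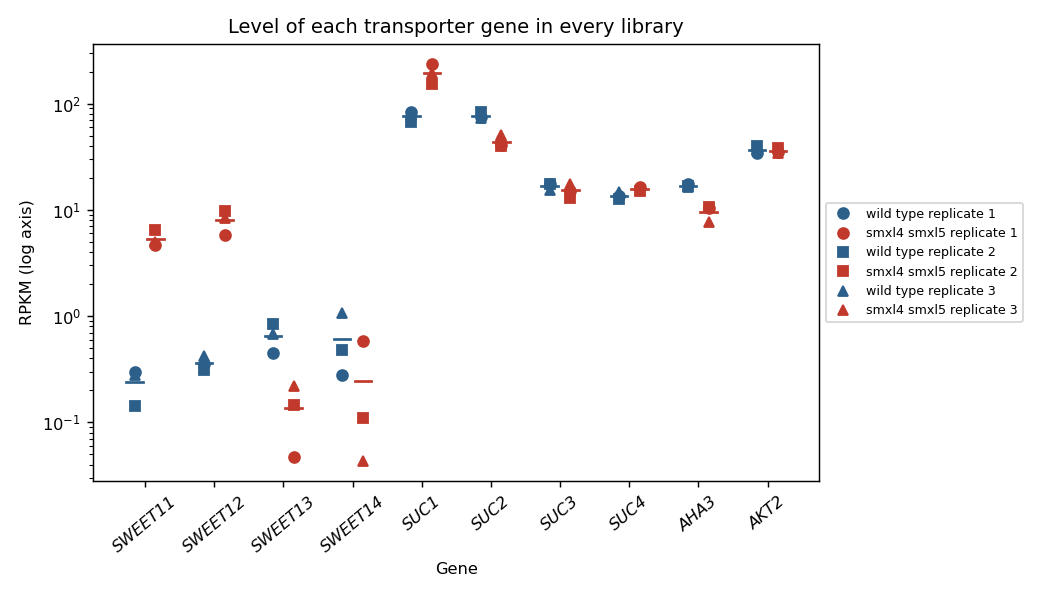
Level of each transporter gene in RPKM (log axis), 1 point per library with the mean of each group as a line, wild type in blue and mutant-labelled in red. *SWEET11* and *SWEET12* lie below 1 RPKM in wild type and between 4.64 and 9.74 RPKM in the mutant-labelled libraries, while *AKT2* is level.

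Markers of the tissues in a stem segment were read beside these values. The counts below stand against 24.9% of all genes called, 11.2% as higher and 13.7% as lower. Of 7 companion cell and sieve element markers 6 fell and 1, *NAKR1*, rose. The calls of *NAKR1* and, among those that fell, *CALS7* were lost without wild type replicate 2, and that of *CALS7* also without replicate 1 of either group. The median of the list was -0.95 on the log2 scale, and its summed level was 202 to 252 CPM in mutant-labelled libraries against 435 to 472 CPM in wild type. *SUC2* and *AHA3* moved in the same direction as most of that list, and *SWEET11*, *SWEET12* and *SUC1* the other way. *AKT2*, the potassium channel gene of the phloem, was not called, at -0.036 ± 0.087. Of 3 genes active in phloem parenchyma (*UMAMIT18*, *UMAMIT11* and *BZIP9*), 0 were called by edgeR, 0 by DESeq2 and 0 had an unadjusted edgeR p under 0.05, with sums of 223 to 347 and 334 to 420 CPM. Photosynthetic markers fell in 6 of 6 cases, with a median of -0.87 and sums of 7914 to 10114 against 13224 to 14453 CPM. The *CAB1* call among them held in only 2 of 6 fits with 1 library left out, namely without replicate 2 or 3 of the mutant-labelled group. Of 6 xylem markers 5 fell (sums of 2074 to 2570 against 3237 to 4009 CPM), *IRX1* and *IRX3* not without replicate 1 of either group or wild type replicate 2, and of 4 epidermis markers 2 fell (338 to 366 against 398 to 620 CPM). Of 6 genes listed for floral organs and pollen, *PI* rose (not without wild type replicate 2), *AHA8* was present at 16.3 CPM in wild type and so does not mark flowers in this tissue, and *AP3*, *AG* and *SEP3* had at most 1 count in any library. Of 3 root markers 1 was tested and not called, with sums of 0.325 to 0.360 against 0.202 to 0.443 CPM. The part of these tissues in the transporter results was not tested.

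Relatives of the transporters and proteins that act on them were taken as 5 lists of 45 genes, of which 29 were tested, 8 rose and 7 fell, beside 24.9% of all genes called. With each library left out in turn, 1 of the 8 higher calls (*AHA1*) and 3 of the 7 lower calls (*SWEET1*, *SWEET2* and *KAT1*) held in all 6 fits. Calls over all genes also fell in most such fits, from 5053 to as few as 1902. The share of all called genes that held in every fit was not counted. DESeq2 called 12 of the 29, without *SUC6*, *AHA5*, *AHA9* and *KC1* (DESeq2 adjusted p from 0.0634 to 0.0909) and with *GORK*. Over all genes DESeq2 called 5359 of the 21727 that it tested. Among 13 other SWEET genes 4 were tested and 3 fell. *SWEET2* (AT3G14770), a glucose carrier of the vacuole, read 8.84, 8.49 and 6.78 CPM in wild type and 2.75, 2.98 and 2.74 CPM in mutant-labelled libraries (log2 -1.51 ± 0.14, edgeR adjusted p = 0.00170). *SWEET17*, a fructose carrier of the vacuole and the most abundant of them, was at -0.32 ± 0.085 on the log2 scale (edgeR adjusted p = 0.0317), a call lost without mutant-labelled replicate 1 or 3 or wild type replicate 1 or 2 (edgeR adjusted p up to 0.1254). *SWEET1*, a plasma membrane glucose carrier picked out with its values known, fell by 0.95 on the log2 scale. *SWEET9*, *SWEET10* and *SWEET15*, the other sucrose carriers of the same clade, had 0, 0 and 6 counts over all libraries. Of 5 other SUC genes 2 were tested. *SUC6*, with 54 counts in mutant-labelled libraries and 28 in wild type, was at 1.39 ± 0.34 (edgeR adjusted p = 0.0245, but up to 0.0947 and no call without mutant-labelled replicate 1 or 3 or wild type replicate 2 or 3), and *SUC5*, next to *SUC1* on the chromosome, was not called at -0.22 ± 0.37 (edgeR adjusted p = 0.685).

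Of 10 other proton pump genes of the AHA family 9 were tested, 4 rose, 1 fell and 4 were not called. *AHA1*, a general pump of growing cells and guard cells and the most abundant of the family, read 700, 642 and 687 CPM in wild type and 1120, 1073 and 910.3 CPM in mutant-labelled libraries (log2 0.61 ± 0.10, edgeR adjusted p = 0.00729). *AHA9*, at 8 to 19 counts a library, was at 1.35 ± 0.34 on the log2 scale (edgeR adjusted p = 0.0264), a call lost when any library except mutant-labelled replicate 3 was left out (edgeR adjusted p up to 0.108). *AHA2* and *AHA4*, picked out with their values known, were at 0.47 ± 0.095 and -0.68 ± 0.14. Both calls were lost without wild type replicate 2, and that of *AHA4* also without replicate 1 of either group. The remaining riser, *AHA5*, was at 0.29 ± 0.089 (edgeR adjusted p = 0.0470) and kept its call only without mutant-labelled replicate 3. Of 8 other Shaker-type potassium channels 5 were tested, 2 rose and 1 fell. Of the risers, *KC1*, a regulatory channel subunit picked out with its values known, was at 0.84 ± 0.25 (edgeR adjusted p = 0.0429), a call lost whichever library was left out (edgeR adjusted p up to 0.109). The gene that fell, *KAT1*, an inward channel of guard cells, dropped from 21.4, 22.0 and 20.1 CPM to 4.31, 3.77 and 3.58 CPM (log2 -2.44 ± 0.10, edgeR adjusted p = 0.000134). The other riser, *AKT1*, the channel of potassium uptake in roots, was at 0.51 ± 0.12 (edgeR adjusted p = 0.0214), a call lost without mutant-labelled replicate 1 or wild type replicate 1 or 2 (edgeR adjusted p up to 0.0766). Of 4 guard cell markers, which include *KAT1*, 1 fell and *FAMA* rose by 1.43 ± 0.16, beside 24.9% of all genes called. The part of guard cells in the *KAT1* result was not tested.

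Of 9 partners and regulators of loading, 2 fell and 1 rose, beside 24.9% of all genes called, 11.2% as higher and 13.7% as lower. *AVP1*, a vacuolar proton pyrophosphatase also placed in the phloem and the most abundant of the list, was at -0.45 ± 0.12 on the log2 scale (edgeR adjusted p = 0.0330). *SXD1*, the tocopherol cyclase gene whose maize counterpart is needed for sucrose export, was at -0.45 ± 0.13, and *CIPK6*, a kinase gene whose product helps to bring AKT2 to the plasma membrane, at 0.31 ± 0.090 (edgeR adjusted p = 0.0424 and 0.0409, both picked out with their values known). Each of these 3 calls was lost without replicate 1 of either group or wild type replicate 2, and also without mutant-labelled replicate 2 (*AVP1* and *CIPK6*) or 3 (*SXD1*), with edgeR adjusted p up to 0.155. *UBC34* and *WAKL8*, whose products act on the SUC2 protein, were not called, at 0.017 ± 0.066 and 0.14 ± 0.10.

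**Figure D5:**
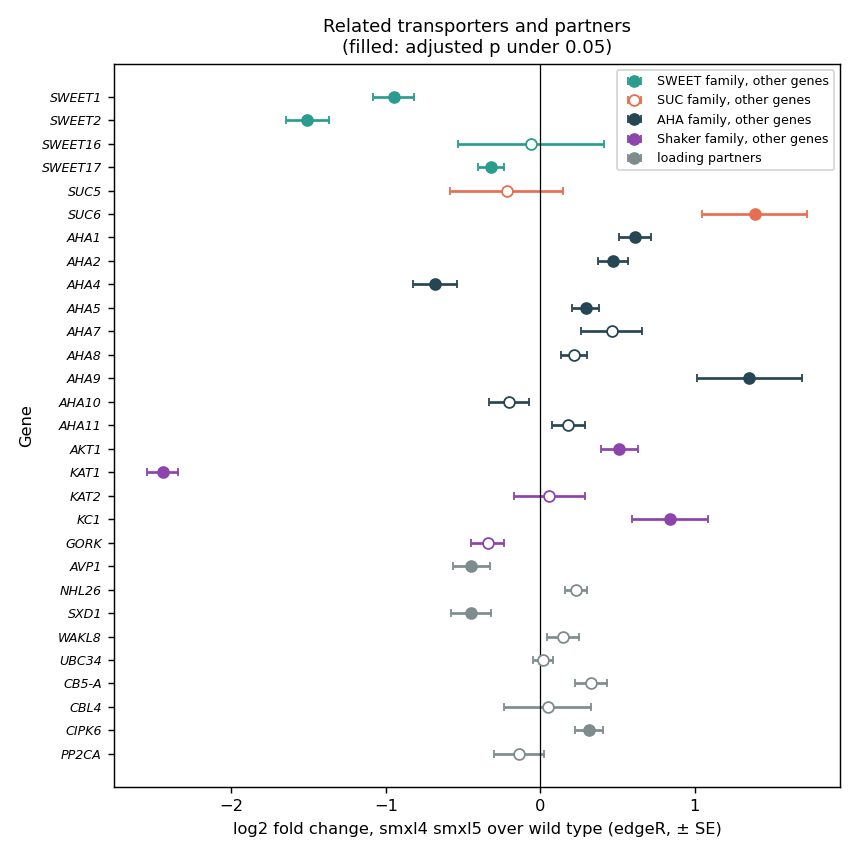
Log2 fold change (edgeR, ± SE, n = 3 libraries a group) of the 29 tested genes of the related lists, coloured by list. Filled points passed an adjusted p of 0.05, of which 8 lie to the right of 0 and 7 to the left, with *KAT1* the lowest at -2.44.

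The genes whose profile over the 6 libraries came nearest to a member were found among the 18528 tested genes averaging 1 CPM or more, by the root mean square distance of log2(CPM + 0.5) after centring each gene. *SWEET11* and *SWEET12* were each other's nearest profile, at 0.188. Their wild-type means, 0.333 and 0.488 CPM, lie below the pseudocount of 0.5, which compresses their difference between the groups. Next for both came *GLYI4* (AT1G15380), annotated as a glyoxalase I gene, at 0.236 from *SWEET11* and 0.269 from *SWEET12*, which went from 3.62 ± 0.46 to 50.3 ± 14.3 CPM (SD, n = 3), and AT1G80130, at 0.240 and 0.378, which went from 1.28 ± 0.36 to 13.4 ± 2.94 CPM. Their edgeR log2 fold changes, 3.80 ± 0.24 for *GLYI4* and 3.36 ± 0.25 for AT1G80130, were smaller than those of *SWEET11* and *SWEET12*. For *SUC2* the nearest were AT5G40150 at 0.038, *SKU5* (AT4G12420), a gene of directional root growth, at 0.040 and AT3G61870 at 0.041, with log2 fold changes of -0.84 ± 0.097, -0.76 ± 0.12 and -0.79 ± 0.11. For *SWEET13*, whose low values are likewise compressed by the pseudocount, the nearest were AT3G62730, AT3G25597 and the cold-regulated gene *COR15A*, at 0.078, 0.082 and 0.084. Their edgeR log2 fold changes, -0.95 ± 0.22, -1.16 ± 0.20 and -0.96 ± 0.23, were smaller in size than the -2.24 ± 0.48 of *SWEET13*. These distances describe likeness over 2 groups of libraries, where many genes share the difference between the groups.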

How the data were processed

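RNA sequencing counts of 6 libraries, 3 per genotype label, were analysed. The authors deposited raw counts per locus for each library. The build TAIR10 and the tools TopHat2 2.0.14, FastQC 0.11.7 and DESeq2 are listed in the submitters' processing notes. Which program counted the reads, against which annotation and with which strand setting, is not given in the sources used here. A second table of the authors holds, per the file headers, the mean normalized signal, log2 fold change and its error, test score and p-values of their own comparison. It was read for the members' values and adjusted p, and for the sign of genes called strongly by edgeR. Protocols state 3 biological replicates per genotype, although each wild-type description reads replicate 1. P-values measure the spread between these pools.

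Counts were tested with edgeR 4.0.16 in R 4.3.3 (filterByExpr with minimum count 10 and minimum total 15, TMM factors, robust quasi-likelihood F test, prior count 0.125, two-sided, Benjamini-Hochberg adjustment over 20296 genes at 0.05). Standard errors were taken as the log2 fold change divided by the root of the F statistic. RPKM divides CPM by the length of all exons merged, read from RefSeq on TAIR10.1, which held 32835 of the 33602 loci. Sums and ratios were tested over libraries with exact permutation tests. Transcripts were searched with BLAST 2.17.0. Alternatives were DESeq2 1.42.0, RLE factors, total counts, no filter, a block for the replicate number and each library left out. The edgeR step was tested on simulated data. The members and gene lists were chosen with earlier results of these data known. Named beside the members were, from each related list, called genes with a log2 fold change of at least 1 in size and the most abundant gene, and the 3 nearest profiles of *SWEET11*, *SWEET12*, *SWEET13* and *SUC2*. Counting error is only a lower limit of the error, since reads were amplified.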

Additional observations from a re-analysis of the deposited data

How the results depend on the processing

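With each library left out in turn and under DESeq2, RLE factors, total counts, no filter and the replicate block, the 3 higher members kept their calls, and 3 members were lower except without wild type replicate 2, where 2 were, the lost call being *SWEET13* (edgeR adjusted p = 0.0636). Of 110 alternative fold changes of members, 107 kept direction and call. The *AKT2* fold change, which was never called, ran from -0.10 to 0.022 with 1 library left out. In such fits the *SUC2* to *AHA3* log2 difference ran from -0.26 to 0.14 and that of *SWEET11* to *SWEET12* from -0.14 to 0.31, both changing sign. The number of genes called over the whole table was 5053, and ran from 1902 (wild type replicate 2) to 5558 (mutant-labelled replicate 3) with 1 library left out, and the cause was not tested. With the replicate number as a block it was 3356. The titles share these numbers but no label says that they pair samples. Same-numbered libraries correlated in their deviations from the group means by 0.044, 0.069 and -0.032, so the numbers were not taken as pairs, and not every library correlated best with its own number. Scaling moved the median fold change of all genes by less than 0.1, from 0.021 to 0.013 with RLE factors and 0.039 with total counts. The counts of *SWEET13* and *SWEET14*, at 2 to 68 a library, limit what their fold changes can show.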

Other observations

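The protein-coding loci on either side of each member in the annotation, looked at after the members' values were seen, numbered 20, of which 16 were tested by edgeR, 4 higher and 1 lower. Over all genes tested, 11.2% were called as higher and 13.7% as lower, so these counts are not read as a result about the neighbours. The tested neighbours of *SWEET11*, *GSA2* and *CDC2*, had log2 fold changes of -0.13 ± 0.075 and 0.048 ± 0.065, and *LCB2* beside *SWEET12* was at 0.067 ± 0.082, none of them called. Beside *SUC2*, AT1G22700 was at -0.0058 ± 0.093. The 4 higher neighbours were *TIM8* beside *SWEET13* at 0.30 ± 0.087, AT4G25020 beside *SWEET14* at 0.47 ± 0.14, *ARPN* beside *SUC3* at 0.52 ± 0.14 and *LRR XI-23* beside *SUC4* at 0.67 ± 0.20, and the lower one was *AMY1* beside *SWEET14* at -0.62 ± 0.18.

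In the authors' deposited table the log2 fold changes have the opposite sign to those above for all 10 members, as for 30 of 30 genes whose adjusted p in edgeR was under 0.001. The authors' deposited table gives -3.60 ± 0.24 for *SWEET11*, -3.64 ± 0.23 for *SWEET12* and 1.11 ± 0.31 for *SWEET13*, each smaller in size than the edgeR value. DESeq2 run on the counts here gave 4.48, 4.44 and -2.27 for these genes. The cause of the differing signs and sizes was not tested. Adjusted p was under 0.05 for 6 of the 10 members in the authors' deposited table, where the share over all genes was not counted. In the edgeR fit 24.9% of all genes tested were called.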
